A study of Mus musculus with 12 samples.

Results

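Liver gene expression in mice labelled TNFR1/2 KO (group TNFR12_KO, 3 libraries) was compared with that in wild-type mice (WT, 3 libraries) after ischemia, an interruption of blood supply. All genes of the deposited table entered the comparison, in 6 of the 12 libraries of the series, and 11718 genes were expressed highly enough to be tested. The other 6 libraries, 3 of wild-type mice with a sham operation (Sham) and 3 of mice with the RIPK1 D138N mutation (RIPK1_D138N), give reference levels for named genes. Total RNA was sequenced from liver in every group. Only Sham carries a sham label, and the title of the series was the basis for placing WT, TNFR12_KO and RIPK1_D138N in an ischemia arm. Strain, sex, age, the kind of knockout allele, the duration of ischemia and the time of collection are not given in the sources used here. Whether the 3 libraries of a group come from different animals is not stated in the labels, so p-values cover only the spread between these samples. No sham-operated TNFR12_KO libraries were analysed here, so differences before ischemia and differences in the response to it cannot be told apart. In bulk tissue, fewer cells of a type and less RNA per cell also cannot be told apart.

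TNFR1, encoded by Tnfrsf1a, is found on most cells of the liver, whereas TNFR2, encoded by Tnfrsf1b, is known mainly from leukocytes and endothelium. Binding of TNF to TNFR1 assembles RIPK1, TRAF2 and ubiquitin ligases into a complex that activates the kinases of the NF-kB and AP-1 pathways. When that complex is disturbed, RIPK1 can instead start caspase-8 apoptosis or RIPK3 and MLKL necroptosis. In liver the pathway is known for controlling acute-phase genes, hepatocyte death and regeneration.

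The authors' values are FPKM, fragments per length of transcript scaled to the total of a library, and differences below are differences of mean log2(FPKM + 1), TNFR12_KO minus WT, which understate the change of low genes. FPKM summed over all genes to 291465, 303514 and 288934 in WT and to 509673, 512931 and 441296 in TNFR12_KO. The most common ratio of low values between pairs of libraries was read as the relative worth of 1 fragment. Against the deepest WT library it was up to 1.78 in the other WT libraries and 1.84 to 2.81 in TNFR12_KO. Low genes were thus measured more coarsely in TNFR12_KO, though the nearest libraries of the groups, at 1.78 and 1.84, differed little. The difference was negatively related to transcript length across 11709 genes (Spearman's rho -0.247, a description, since genes are not independent). At 8 genes all WT libraries, and at 15 genes all TNFR12_KO libraries, are listed at 0 while another group reaches at least 100 FPKM. Such zeros can be failed estimates, and these genes are not named with values. RIPK1_D138N replicates 2 and 3 expressed Xist and lacked Ddx3y, whereas the 6 libraries compared here all had the opposite pattern. Hepatocyte markers dominated every library, and the defining markers of pancreas and skeletal muscle, Ins2, Prss1 and Ckm, were at 0 in all 6.

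Most genes of the hepatocyte metabolism lists stood higher in TNFR12_KO than in WT, among them 76 of 77 nuclear-encoded subunits of oxidative phosphorylation and 37 of 38 genes of amino acid catabolism. Lower were 19 of 24 targets of the hypoxia-inducible factor outside glycolysis, 18 of 32 acute-phase proteins and 15 of 23 genes of the ATF4 and CHOP response. Glycolysis, interferon-stimulated genes and NRF2 targets were divided, and ER chaperones were higher for 11 and lower for 0 of 30 as deposited, but not after quantile normalization. Of 11718 genes, 3463 (29.6%) were called higher and 2056 (17.5%) lower in TNFR12_KO with limma at an adjusted p under 0.05, together 47.1%. List counts below are to be read against these shares. The TNFR12_KO and WT libraries did not overlap for 6760 tested genes (57.7%), so a lack of overlap was common. The difference exceeded 1 on the log2 scale for 1900 of the higher and 742 of the lower genes. Against Sham, 3002 genes (25.6%) differed in TNFR12_KO, with 875 (7.47%) higher and 2127 (18.2%) lower, a balance that turned to 1394 (11.9%) higher and 991 (8.46%) lower after median-of-ratios scaling. Against RIPK1_D138N, 109 genes (0.93%) differed, with 68 (0.58%) higher and 41 (0.35%) lower, or 50 and 47 after that scaling. Without TNFR12_KO replicate 3 the counts were 1856 against Sham and 31 against RIPK1_D138N. The latter was 48 without TNFR12_KO replicate 2, 58 and 70 without single WT libraries, and 39 without RIPK1_D138N replicates 2 and 3, which expressed Xist. The balance of directions against WT depends on the scaling too. The median of all tested genes was 0.14 as deposited and -0.07 after median-of-ratios scaling, which gave 2717 higher (23.2%) and 3269 lower (27.9%) genes. Differences are therefore read below against a shift of this size. The filter on low values bears on some calls. Of the tested genes, 572 passed it only through WT, with fewer than 3 libraries at 1 FPKM in the other groups together, and 371 of these were called lower. Likewise 282 passed only through TNFR12_KO, of which 97 were called higher. For such genes the filter itself favoured a difference, so their tests are not independent of the filter. Among the genes named here they are Ankrd37, Bcl2a1b, Btc, Clcf1, Cmpk2, Cxcr4, Ereg, Fosl1, Hk1, Hk2, Il11, Il6, Irak3, Lce1d, Lif, Mt4, Npy, Osmr, Pfkp, Psat1, Slc16a3, Slc1a4, Slc7a5, Timp1, Tnfrsf10b and Tnfrsf9, through WT, and Hist1h2al, Sele and Il1a, through TNFR12_KO. Without such genes, 3366 were higher and 1685 lower of 10919, and interleukins and their receptors had 6 higher and 6 lower of 21, TNF ligands and receptors 4 and 3 of 9, chemokines 6 and 5 of 15 (median 0.43) and glycolysis 8 and 10 of 23. Targets of the hypoxia-inducible factor outside glycolysis then had 0 higher and 16 lower of 21. The ATF4 and CHOP response had 2 higher and 13 lower of 21.

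**Figure D1:**
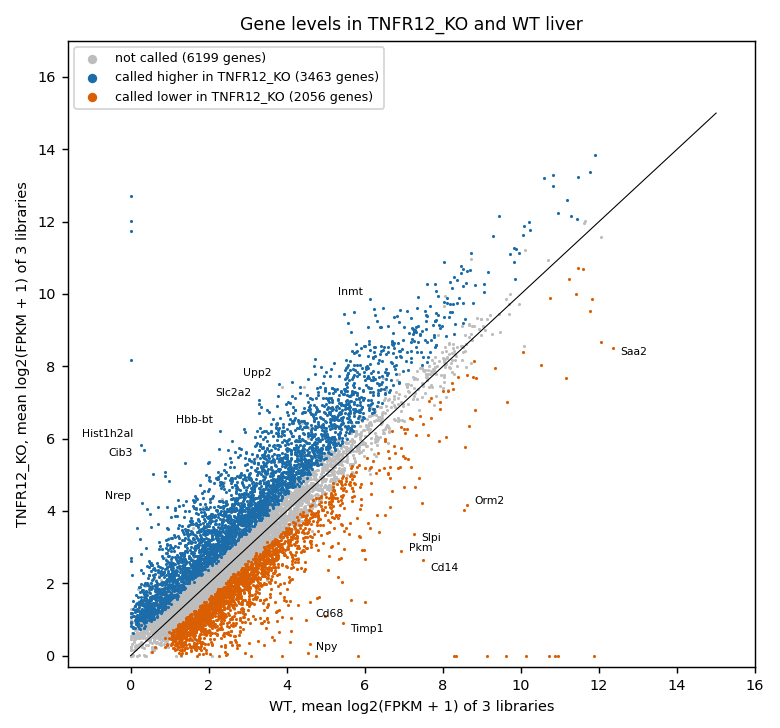
Mean log2(FPKM + 1) of 3 WT libraries (horizontal axis) and 3 TNFR12_KO libraries (vertical axis) for the 11718 tested genes, coloured by call, with the line of equality and some of the genes with the largest differences named. Points on either axis far from 0 are loci listed at 0 in a whole group. The 3463 genes called higher lie above the line and the 2056 called lower lie below it.

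**Figure D2:**
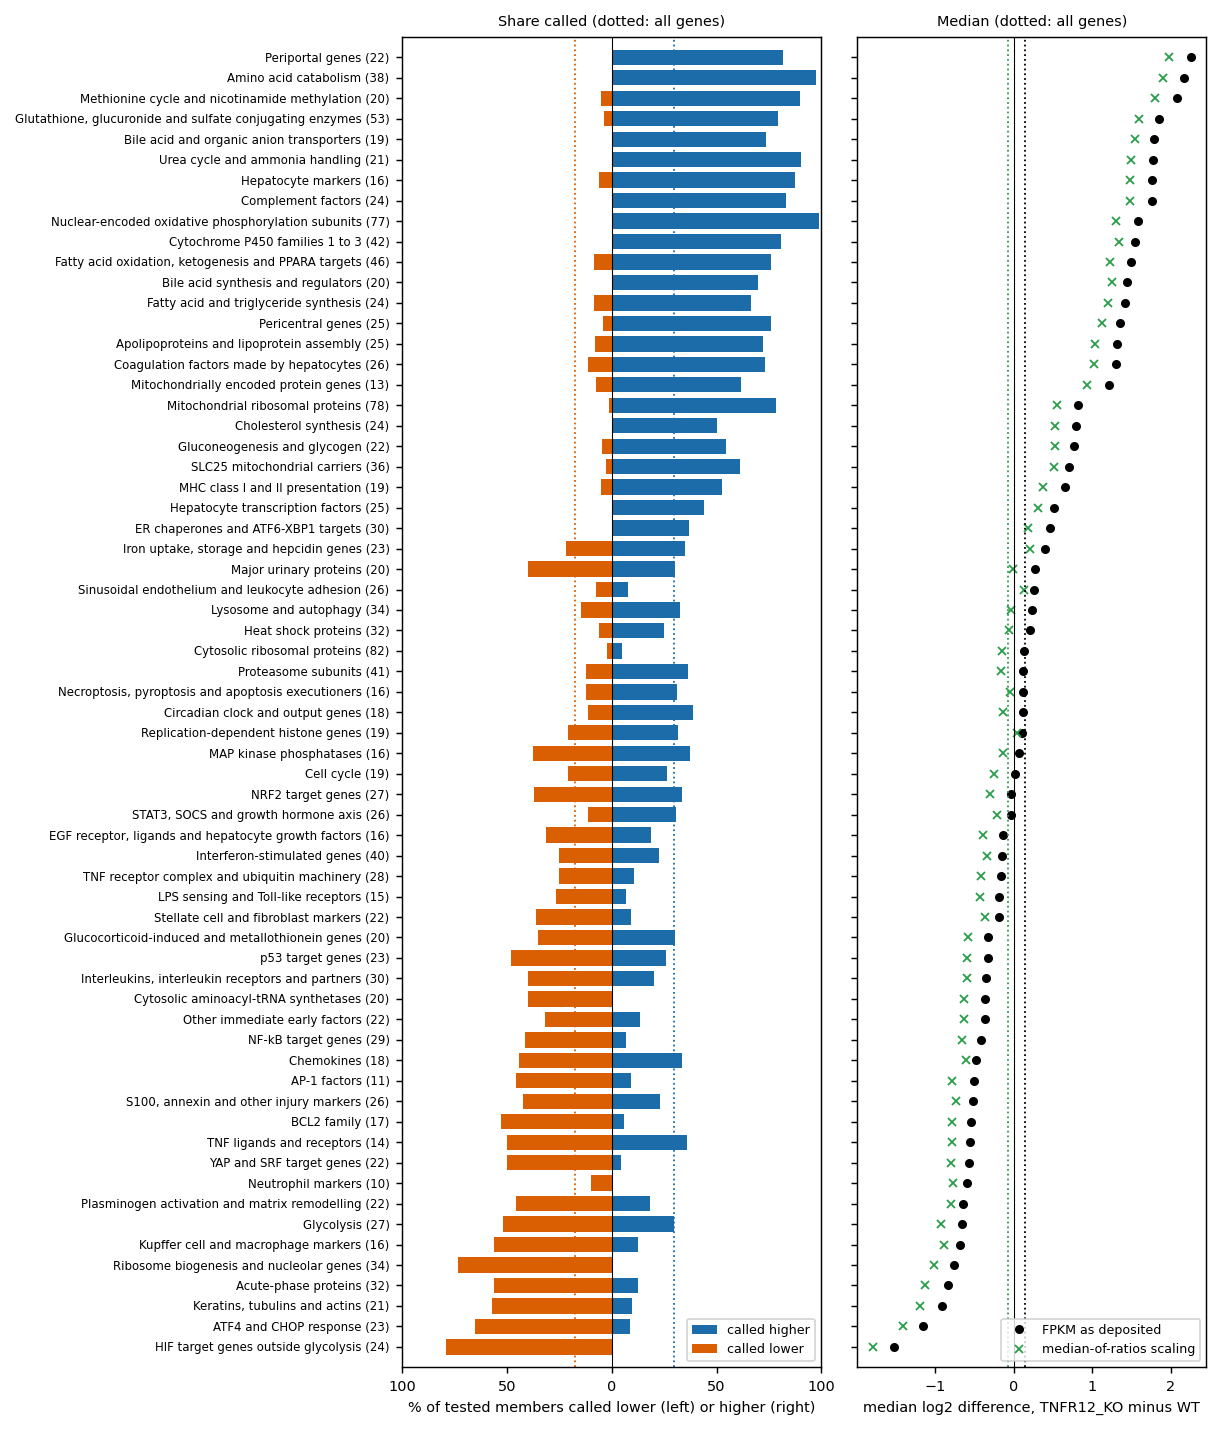
Left, for each gene list with at least 10 tested members (number in brackets), the percentage of tested members called lower (orange, to the left) or higher (blue, to the right) in TNFR12_KO than in WT, with dotted lines at 29.6% and 17.5% of all tested genes. Right, the median log2 difference of the list's tested members from FPKM as deposited (dots) and after median-of-ratios scaling (crosses), with dotted lines at the medians of all tested genes. Metabolic lists sit at the top and HIF and ATF4 target genes at the bottom.

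The targeted genes were not absent at the RNA level. Tnfrsf1a (ENSMUSG00000030341, chromosome 6, 125349362 to 125362484 on GRCm38) was at 34.9, 32.3 and 38.1 FPKM in WT and at 15.3, 21.9 and 18.4 FPKM in TNFR12_KO. All 3 TNFR12_KO libraries lay below all WT libraries (log2 difference -0.90, SE 0.18, limma adjusted p = 0.00153), and Sham was higher than both, at 69.5 ± 16.5 FPKM (SD, n = 3). RIPK1_D138N, which is not labelled with a receptor knockout, held 19.8 ± 1.09 FPKM. Tnfrsf1b was at 10.2, 8.13 and 10.2 FPKM in WT and at 7.22, 3.96 and 9.31 FPKM in TNFR12_KO, the groups overlapped, and the difference did not pass the test (log2 difference -0.48, SE 0.29, limma adjusted p = 0.188). It was called lower after median-of-ratios scaling (log2 difference -0.74, limma adjusted p = 0.0499) and after quantile normalization (log2 difference -0.72, limma adjusted p = 0.0423). A gene total cannot show whether a transcript carries a deletion, so these values do not check the label.

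Among 14 tested TNF ligands and receptors, 5 were higher and 7 lower in TNFR12_KO (29.6% and 17.5% of all tested genes), with a median log2 difference of -0.55 (0.14 over all tested genes). Without the 5 that passed the filter on low values only through 1 group, 4 were higher and 3 lower of 9 (median -0.48). Tnfrsf12a, the receptor of the growth and injury ligand TWEAK, was at 159.7, 132 and 175 FPKM in WT and at 22.2, 34.1 and 18.6 FPKM in TNFR12_KO (log2 difference -2.63, SE 0.37, limma adjusted p = 8.57e-05). Sham held 15.3 ± 2.53 FPKM, and its difference from TNFR12_KO did not pass the test (limma adjusted p = 0.217). Tnfrsf9 (4-1BB), a costimulatory receptor induced by NF-kB, was at 3.1, 2.68 and 2.42 FPKM in WT and at 0.448, 0.244 and 0.105 FPKM in TNFR12_KO. The death receptor gene Fas rose from 3.6 ± 0.556 to 8.58 ± 1.66 FPKM (log2 difference 1.05, SE 0.22, limma adjusted p = 0.00184), while the death receptor gene Tnfrsf10b fell (log2 difference -0.84). Tnfrsf9 and Tnfrsf10b passed the filter on low values only through WT, which favoured their calls. Tnf itself, at 0.115, 0.152 and 0.147 FPKM in WT and at 0.364, 0.345 and 0.227 FPKM in TNFR12_KO, lay below the level needed for testing in both groups.

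Of 28 tested genes of the TNF receptor complex and its ubiquitin machinery, 3 were higher and 7 lower (median -0.15), or 1 higher and 12 lower after median-of-ratios scaling. Without the 3 that passed the filter on low values only through 1 group, 3 were higher and 4 lower of 25 (median -0.04). The 3 subunits of the linear ubiquitin ligase LUBAC split. Rnf31 (HOIP), its catalytic subunit, was at 5.95, 6.16 and 6.19 FPKM in WT and at 2.05, 1.64 and 2.39 FPKM in TNFR12_KO, while the accessory subunit Sharpin was at 13.7, 9.09 and 13 FPKM in WT and at 28.5, 16.2 and 19.5 FPKM in TNFR12_KO. Neither pair of groups overlapped, and the adaptor subunit Rbck1 (HOIL-1) rose by 0.49 on the log2 scale (limma adjusted p = 0.0295). Sharpin was not called after median-of-ratios scaling or quantile normalization, with no filter or without 1 WT library or TNFR12_KO replicate 1 (limma adjusted p 0.0578 to 0.178), and Rbck1 was not called after median-of-ratios scaling or quantile normalization or without any 1 of the WT libraries or TNFR12_KO replicate 2 or 3 (limma adjusted p 0.0514 to 0.254). A similar split was seen in the IKK complex, the kinase that releases NF-kB. Ikbkg (NEMO), its regulatory subunit, was at 22.4, 12.4 and 22.2 FPKM in WT and at 5.74, 8.53 and 7.74 FPKM in TNFR12_KO, and Chuk (IKK-alpha) was at 19.5, 15 and 18.2 FPKM in WT and at 27.4, 28.9 and 30.7 FPKM in TNFR12_KO, which lost its call after quantile normalization (limma adjusted p = 0.247). After median-of-ratios scaling the list had 1 member called higher. Ripk1 was at 4.52, 2.91 and 4.22 FPKM in WT and at 4.03, 3.62 and 4.17 FPKM in TNFR12_KO and did not differ detectably (log2 difference 0.03, SE 0.20, limma adjusted p = 0.915).

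Of 16 tested death executioners 5 were higher and 2 lower, near the shares of all tested genes (29.6% and 17.5%). Their median of 0.12 turned negative after median-of-ratios scaling and without TNFR12_KO replicate 2. Casp8, the initiator caspase downstream of TNFR1, was at 5.86, 3.98 and 6.16 FPKM in WT and at 12.5, 9.68 and 10.6 FPKM in TNFR12_KO, without overlap (log2 difference 0.93, SE 0.18, limma adjusted p = 9.64e-04), and stood at 20 ± 2 FPKM in Sham. Mlkl, the pore-forming protein of necroptosis, was at 4.55, 6.01 and 4.83 FPKM in WT and at 1.52, 2.5 and 1.62 FPKM in TNFR12_KO and fell (log2 difference -1.10, SE 0.23, limma adjusted p = 0.00197). Ripk3, the kinase that activates MLKL, was at 0.795, 1.31 and 0.953 FPKM in WT and at 0.52, 0.123 and 0.203 FPKM in TNFR12_KO and too low to be tested. Apaf1, the apoptosome scaffold, fell from 2.05 ± 0.341 to 0.474 ± 0.157 FPKM, and Ninj1, which ruptures the membrane of dying cells, rose from 33.5 ± 3.81 to 76.7 ± 5.85 FPKM.

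**Figure D3:**
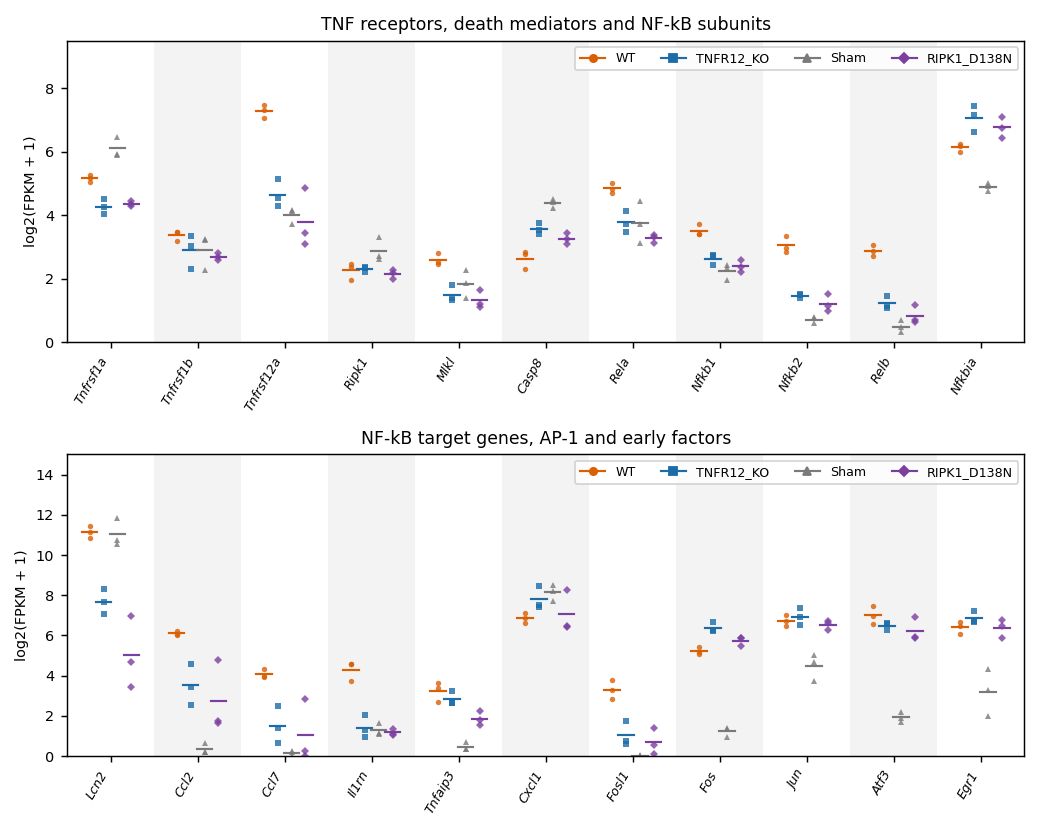
log2(FPKM + 1) in every library for TNF receptor, death and NF-kB subunit genes (top) and for NF-kB target, AP-1 and early genes (bottom). Each point is 1 library, the bar is the group mean, and there are 3 libraries in each of WT, TNFR12_KO, Sham and RIPK1_D138N. Nfkb2, Relb, Ccl2, Il1rn and Fosl1 lie lower in TNFR12_KO than in WT, whereas Nfkbia and Fos lie higher and Jun, Atf3 and Egr1 overlap or did not pass the test.

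Of 9 tested NF-kB subunits and inhibitors, 4 were lower and 1 higher, and the 4 were all subunits. Nfkb2, the precursor of p52, was at 6.94, 6.15 and 9.25 FPKM in WT and at 1.62, 1.82 and 1.89 FPKM in TNFR12_KO, and its partner Relb was at 5.55, 7.34 and 6.32 FPKM in WT and at 1.11, 1.76 and 1.24 FPKM in TNFR12_KO. Both were separated from WT in every library (log2 differences -1.59 and -1.65), as were Rela (-1.07) and Nfkb1 (-0.89). Nfkbia, which encodes the inhibitor IkB-alpha and is itself a target of NF-kB, went the other way, at 72.3, 75.5 and 62.6 FPKM in WT and at 98.8, 172 and 141 FPKM in TNFR12_KO (log2 difference 0.93, SE 0.22, limma adjusted p = 0.00375). It stood at 29.1 ± 2.77 FPKM in Sham, below both. The Nfkbia call was lost after quantile normalization or removal of the length trend (limma adjusted p 0.0967 to 0.928).

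Of 29 tested NF-kB target genes, 12 were lower and 2 higher in TNFR12_KO, with a median of -0.41. Without the 5 that passed the filter on low values only through 1 group, 8 were lower and 1 higher of 24 (median -0.33). Lcn2, an iron-scavenging acute-phase protein, was at 2292, 1838 and 2746 FPKM in WT and at 201, 314 and 132 FPKM in TNFR12_KO (log2 difference -3.47, SE 0.67, limma adjusted p = 9.81e-04). Ccl2, the main monocyte chemokine, was at 67.3, 74.6 and 64.6 FPKM in WT and at 4.9, 23.3 and 9.98 FPKM in TNFR12_KO (log2 difference -2.58, SE 0.68, limma adjusted p = 0.00733). The groups did not overlap for either gene, and replicate 2 was the highest TNFR12_KO library for both. The cytokine genes Il6 and Il1b fell (log2 differences -1.30 and -1.33). Il6 was not called with a pseudocount of 0.1 or no filter or without either of 2 WT libraries or TNFR12_KO replicate 1 or 3 (limma adjusted p 0.0789 to 0.118), nor Il1b with no filter or without either of 2 WT libraries or TNFR12_KO replicate 1 or 3 (limma adjusted p 0.0906 to 0.147). The endothelial selectin Sele rose, from 0.582 ± 0.161 to 1.27 ± 0.37 FPKM, a call lost after median-of-ratios scaling, quantile normalization or removal of the length trend, with a pseudocount of 0.1 or no filter or without any 1 of the WT libraries or TNFR12_KO replicate 1 or 2 (limma adjusted p 0.0516 to 0.293). Among the 15 targets that did not pass the test were Tnfaip3 (A20, -0.41), Vcam1 (-0.30) and Cxcl1 (0.92). Against Sham, 13 of the 29 were called higher in TNFR12_KO and 1 lower (7.47% and 18.2% of all tested genes).

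The promoters of 1 NF-kB target that fell and 1 that rose are shown to set the letters of their motifs side by side. They cover the 250 bases before the transcript start in RefSeq's annotation of GRCm38.p6, 5′ to 3′ on the strand of the gene, at chr19:46304487-46304736 on the plus strand for the first of the Nfkb2 starts and at chr12:55492648-55492897 on the minus strand. Capitals mark the kB motif, GGG and TTCC with 3 bases of any kind between them, on either strand.
Nfkb2: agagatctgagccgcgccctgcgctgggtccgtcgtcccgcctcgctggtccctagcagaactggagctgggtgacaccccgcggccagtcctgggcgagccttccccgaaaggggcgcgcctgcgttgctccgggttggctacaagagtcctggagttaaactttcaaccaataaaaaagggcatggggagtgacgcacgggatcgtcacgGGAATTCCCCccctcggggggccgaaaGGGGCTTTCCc
Nfkbia: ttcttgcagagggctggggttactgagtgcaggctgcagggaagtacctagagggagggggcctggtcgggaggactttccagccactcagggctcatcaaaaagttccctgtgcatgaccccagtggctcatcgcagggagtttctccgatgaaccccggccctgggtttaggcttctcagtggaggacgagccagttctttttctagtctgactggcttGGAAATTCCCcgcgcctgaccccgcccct
The motif lies in 5.56% of all 32851 promoter windows (300 bases, from 250 before to 50 after the start) and in at least 1 window of 6.31% of the 27025 symbols. Of the targets with a promoter in the table it was found in 2 of 9 called lower, 5 of 12 not called and 1 of 2 called higher.

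AP-1 and other early genes separated by member. Of 11 tested AP-1 factors, 5 were lower and 1 higher (median -0.51). Without the 1 that passed the filter on low values only through 1 group, 4 were lower and 1 higher of 10 (median -0.23). Fosl1 (FRA-1) was at 8.75, 6.16 and 12.8 FPKM in WT and at 0.667, 2.37 and 0.53 FPKM in TNFR12_KO (log2 difference -2.27, SE 0.35, limma adjusted p = 2.02e-04), and the small MAF genes Maff, Mafg and Mafk also fell. Fosl1 passed the filter on low values only through WT, which favoured its call. Fos rose instead, at 42.6, 32.3 and 35.8 FPKM in WT and at 76.2, 72.7 and 102 FPKM in TNFR12_KO (log2 difference 1.15, SE 0.20, limma adjusted p = 4.00e-04), and stood at 1.36 ± 0.381 FPKM in Sham, but was not called after quantile normalization (limma adjusted p = 0.144). Jun (0.19) and Atf3 (-0.51) did not pass the test. Among 22 other immediate early factors 7 were lower and 3 higher (Klf2, Nr4a1 and Sgk1), and 18 were called higher in TNFR12_KO than in Sham. Klf6, a zinc-finger factor of injury, was at 53.6, 46.9 and 44.8 FPKM in WT and at 8.75, 16.2 and 11.2 FPKM in TNFR12_KO, and Ier3, a survival gene, was at 122, 72.2 and 122 FPKM in WT and at 21.2, 31.6 and 16.5 FPKM in TNFR12_KO. Myc fell by 0.96, and Egr1 (0.46) did not pass. Klf2, an endothelial gene induced by blood flow, was at 1.66, 2.05 and 2.01 FPKM in WT and at 19.2, 3.23 and 21.4 FPKM in TNFR12_KO. TNFR12_KO replicate 2 was close to WT and the other 2 were far above it.

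The MAP kinase phosphatases, which end JNK, p38 and ERK signals, were called in 12 of 16 cases, 6 in each direction. Dusp10, an inhibitor of JNK and p38, was at 15.2, 13.3 and 14.5 FPKM in WT and at 1.74, 2.61 and 1.99 FPKM in TNFR12_KO, the clearest fall of the family (log2 difference -2.31, SE 0.21, limma adjusted p = 3.44e-06). Dusp4, Dusp5, Dusp8 and Dusp16 also fell (log2 differences -1.73, -1.26, -1.28 and -1.40). Dusp1, the phosphatase of the earliest phase, rose from 48.5 ± 6.13 to 120.2 ± 38.1 FPKM (log2 difference 1.25, SE 0.35, limma adjusted p = 0.0107), and the ERK phosphatase gene Dusp6 rose from 26.4 ± 4.36 to 56.5 ± 20 FPKM. The Dusp1 call was lost after quantile normalization (limma adjusted p = 0.369) and the Dusp6 call after quantile normalization or without TNFR12_KO replicate 2 (limma adjusted p 0.0551 to 0.267). The list's median of 0.07 changed sign under median-of-ratios scaling, quantile normalization, removal of the length trend, and without 1 WT library or TNFR12_KO replicate 2.

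Of 18 tested chemokines, 8 were lower and 6 higher (median -0.47). The monocyte chemokine Ccl7 was at 14.7, 19 and 14.3 FPKM in WT and at 1.64, 4.59 and 0.586 FPKM in TNFR12_KO, and Ccl6, made by macrophages and granulocytes, was at 22.3, 20.8 and 26.7 FPKM in WT and at 2.33, 2.1 and 1.15 FPKM in TNFR12_KO. Neither gene's groups overlapped (log2 differences -2.56 and -3.10), and Ccl7 was highest in TNFR12_KO replicate 2. Homeostatic and lymphocyte chemokines were among the rises. Cxcl12 rose from 17.3 ± 2.3 to 52.5 ± 1.87 FPKM, Ccl27a from 2.05 ± 0.4 to 8.72 ± 2.3 FPKM and Ccl5 from 1.4 ± 0.998 to 4.19 ± 1.52 FPKM, of which Ccl5 was not called after removal of the length trend (limma adjusted p = 0.092). The neutrophil chemokine Cxcl2 was at 32.6, 17 and 24.8 FPKM in WT and at 8.31, 27.5 and 3.89 FPKM in TNFR12_KO, and its large spread left it short of the test (log2 difference -1.20, SE 0.63, limma adjusted p = 0.137).

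Interleukins and their receptors had 12 of 30 tested members lower and 6 higher. The gp130 ligand Il11 was at 7.78, 5.6 and 6.66 FPKM in WT and at 0.0249, 0.124 and 0 FPKM in TNFR12_KO (log2 difference -2.86, SE 0.15, limma adjusted p = 8.91e-08). Clcf1, another, was at 7.91, 3.97 and 11.2 FPKM in WT and at 0.297, 0.243 and 0.276 FPKM in TNFR12_KO, and the ligand Lif and the receptor Osmr fell (log2 differences -1.26 and -1.51). Il11, Clcf1, Lif and Osmr passed the filter on low values only through WT, which favoured their calls. Il1rn, the natural antagonist of interleukin 1, was at 22.6, 12.5 and 22.7 FPKM in WT and at 1.43, 3.08 and 0.909 FPKM in TNFR12_KO. Lifr, the LIF receptor, rose from 18.6 ± 4.31 to 78.8 ± 13.9 FPKM, Il1rap rose by 2.49, and Il18, an interleukin stored as an inactive precursor, was at 1.72, 2.42 and 1.42 FPKM in WT and at 15.5, 18.5 and 11.9 FPKM in TNFR12_KO (log2 difference 2.51, SE 0.22, limma adjusted p = 2.45e-06). Il1a (0.85) and Il6st, the gene of gp130 (-0.14), did not pass.

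Of 15 tested genes of endotoxin sensing and Toll-like receptors, 1 was higher and 4 lower, beside 29.6% and 17.5% of all tested genes. Without the 1 that passed the filter on low values only through 1 group, 1 was higher and 3 lower of 14 (median -0.18). Cd14, the endotoxin co-receptor, held 4.25 to 6.36 FPKM in TNFR12_KO against 134.7 to 255.6 FPKM in WT (log2 difference -4.85, SE 0.36, limma adjusted p = 9.77e-07). Irak3, a brake on Toll-like receptor signals, was at 6.14, 3.93 and 5.43 FPKM in WT and at 0.165, 0.3 and 0.203 FPKM in TNFR12_KO. Irak3 passed the filter on low values only through WT, which favoured its call. Ly96 (MD-2) fell by 1.23. Tlr5 was the member that rose, from 0.467 ± 0.218 to 1.5 ± 0.766 FPKM, and was not called after median-of-ratios scaling, with no filter or without either of 2 WT libraries or TNFR12_KO replicate 2 or 3 (limma adjusted p 0.0572 to 0.126).

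Acute-phase proteins, secreted by hepatocytes under IL-6 and IL-1, were lower for 18 and higher for 4 of 32 tested genes, 3 of which lie in loci listed at 0 (median -0.84). Saa2, a serum amyloid, was at 5045, 4171 and 6713 FPKM in WT and at 375, 679 and 186 FPKM in TNFR12_KO (log2 difference -3.84, SE 0.98, limma adjusted p = 0.00622). Orm2, an orosomucoid, was at 441, 287 and 487 FPKM in WT and at 25.5, 19.9 and 9.42 FPKM in TNFR12_KO (log2 difference -4.46, SE 0.35, limma adjusted p = 1.38e-06). No library overlapped, and Sham was high for both, at 26070, 23650 and 30610 FPKM for Saa2 and 298, 319.5 and 379.6 FPKM for Orm2. Against Sham, 25 of the 32 were called lower in TNFR12_KO. The fibrinogen genes Fgb (1730 ± 284 FPKM in WT and 951 ± 97.5 FPKM in TNFR12_KO) and Fgg (2452 ± 528 FPKM in WT and 1374 ± 248 FPKM in TNFR12_KO) fell (limma adjusted p = 0.00335 and limma adjusted p = 0.00931), Fgg losing its call with no filter (limma adjusted p = 0.052). Itih4 and Saa4 rose, by 1.13 and 1.04, and were not called after quantile normalization. Hamp (-1.52), the gene of the iron hormone hepcidin, did not pass. The Saa and Orm genes are close copies and may share fragments.

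Interferon-stimulated genes were divided, 9 higher and 10 lower of 40 (median -0.15). Without the 4 that passed the filter on low values only through 1 group, 9 were higher and 7 lower of 36 (median 0.10). Bst2 (tetherin) was at 58.9, 92 and 63.7 FPKM in WT and at 190.3, 244 and 165 FPKM in TNFR12_KO, and Cmpk2, a nucleotide kinase, was at 5.85, 2.76 and 6.35 FPKM in WT and at 0.664, 0.705 and 0.863 FPKM in TNFR12_KO. The groups were separate in both, in opposite directions (limma adjusted p = 7.97e-05 and limma adjusted p = 7.17e-05). Cmpk2 passed the filter on low values only through WT, which favoured its call. Of 19 MHC presentation genes 10 were higher and 1 lower (median 0.65), or 7 higher and 5 lower after quantile normalization (median 0.12) and 8 higher and 5 lower after removal of the length trend. B2m, the light chain of class I, was at 401, 560.5 and 338 FPKM in WT and at 2368, 2250 and 2103 FPKM in TNFR12_KO (log2 difference 2.40, SE 0.23, limma adjusted p = 4.37e-06), and the liver class I gene H2-Q10 rose from 366 ± 38.8 to 1199 ± 199.7 FPKM. The protease gene Ctss, which serves class II in macrophages, was the 1 that fell as deposited, from 8.86 ± 1.75 to 2.41 ± 0.755 FPKM.

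Hypoxia-inducible factor (HIF) activates genes of oxygen supply and anaerobic metabolism when oxygen is low. Of 24 tested HIF targets outside glycolysis, 19 were lower in TNFR12_KO and 0 higher (median -1.53, all genes 0.14). Without the 3 that passed the filter on low values only through 1 group, 16 were lower and 0 higher of 21 (median -1.44). Ankrd37, an ankyrin repeat gene, was at 11.1, 9.11 and 10.7 FPKM in WT and at 1.56, 0.904 and 0.772 FPKM in TNFR12_KO (log2 difference -2.46, SE 0.21, limma adjusted p = 2.17e-06). Ankrd37 passed the filter on low values only through WT, which favoured its call. Egln3 (PHD3), the oxygen sensor that marks HIF for removal, was at 34.8, 38.2 and 31.8 FPKM in WT and at 5.8, 10.2 and 6.2 FPKM in TNFR12_KO (log2 difference -2.13, SE 0.27, limma adjusted p = 3.80e-05). Ndrg1, a stress gene, was at 27.9, 36.9 and 32.2 FPKM in WT and at 5.16, 3.98 and 3.58 FPKM in TNFR12_KO (log2 difference -2.67, SE 0.21, limma adjusted p = 1.59e-06). None of the 3 overlapped, and all 3 TNFR12_KO libraries stood above the Sham means of 0.34 ± 0.187, 1.89 ± 0.0192 and 2.19 ± 0.205 FPKM. Vegfa, the angiogenic factor, fell from 99.3 ± 10.9 to 37.5 ± 13.6 FPKM, and Adm, a vasodilator, from 48 ± 11.7 to 9.78 ± 3.7 FPKM. Bhlhe40 (-0.29), Tfrc (0.45) and Pfkfb3 (-0.66) were among those that did not pass. Against Sham, 8 were called higher and 3 lower, or 10 and 0 after median-of-ratios scaling.

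Promoters of a pair of HIF targets that fell are shown for the HIF core motif ACGTG, in capitals on either strand. They are the 250 bases before the start at chr8:45999851-46000100 on the minus strand and at chr12:54203875-54204124 on the minus strand (RefSeq, GRCm38.p6).
Ankrd37: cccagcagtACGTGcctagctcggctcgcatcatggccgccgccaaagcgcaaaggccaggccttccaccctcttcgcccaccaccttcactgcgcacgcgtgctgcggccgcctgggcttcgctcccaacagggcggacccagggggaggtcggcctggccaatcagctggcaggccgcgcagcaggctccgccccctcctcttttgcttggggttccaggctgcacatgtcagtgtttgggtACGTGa
Egln3: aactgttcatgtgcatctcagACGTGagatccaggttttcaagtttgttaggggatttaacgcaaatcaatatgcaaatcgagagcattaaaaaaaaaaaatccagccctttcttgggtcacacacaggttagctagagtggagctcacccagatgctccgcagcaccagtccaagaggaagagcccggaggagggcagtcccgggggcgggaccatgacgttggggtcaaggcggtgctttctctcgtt
The motif lies in 19.6% of all windows and in 21.8% of symbols, and it is also part of the E-box CACGTG. It was found in 10 of the 12 targets called lower that have a promoter in the table (83.3%) and in 4 of 4 tested targets that were not called.

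Glycolysis split by isoform, 14 lower and 8 higher of 27 tested. Pkm, the pyruvate kinase of muscle and of dividing cells, was at 118, 126 and 121 FPKM in WT and at 10.4, 5.28 and 4.66 FPKM in TNFR12_KO (log2 difference -4.05, SE 0.25, limma adjusted p = 2.64e-07). Slc16a3 (MCT4), the lactate exporter, was at 21, 22.2 and 20.9 FPKM in WT and at 1.5, 0.833 and 0.72 FPKM in TNFR12_KO (log2 difference -3.49, SE 0.23, limma adjusted p = 4.65e-07). Slc2a1 (GLUT1), the widespread glucose transporter, was at 54.9, 68.2 and 50.5 FPKM in WT and at 7.71, 10.3 and 8.07 FPKM in TNFR12_KO (log2 difference -2.60, SE 0.34, limma adjusted p = 4.92e-05). WT stood far above TNFR12_KO for these 3, with no overlap. The same direction held for Pfkl (-2.34), Aldoa (-2.03), Pfkp (-1.80), Hk2 (-1.71), Hk1 (-1.54), Eno1 (-1.11) and Pgk1 (-1.10). Slc16a3, Pfkp, Hk2 and Hk1 passed the filter on low values only through WT, which favoured their calls. Counterparts typical of hepatocytes were among the rises. Slc2a2 (GLUT2) was at 9.62, 12.7 and 5.46 FPKM in WT and at 112, 164 and 125 FPKM in TNFR12_KO (log2 difference 3.77, SE 0.25, limma adjusted p = 4.68e-07), and liver pyruvate kinase Pklr was at 20.8, 14.5 and 12.7 FPKM in WT and at 38.9, 74.3 and 83.7 FPKM in TNFR12_KO. Pfkfb1 rose by 1.72. Pfkl is an exception to the division, since it encodes the liver phosphofructokinase and fell. Gapdh (-0.24) and Pfkfb2 (0.34) did not pass. Slc2a2 was above Sham as well, which stood at 32.6 ± 2.35 FPKM (limma adjusted p = 1.78e-04).

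**Figure D4:**
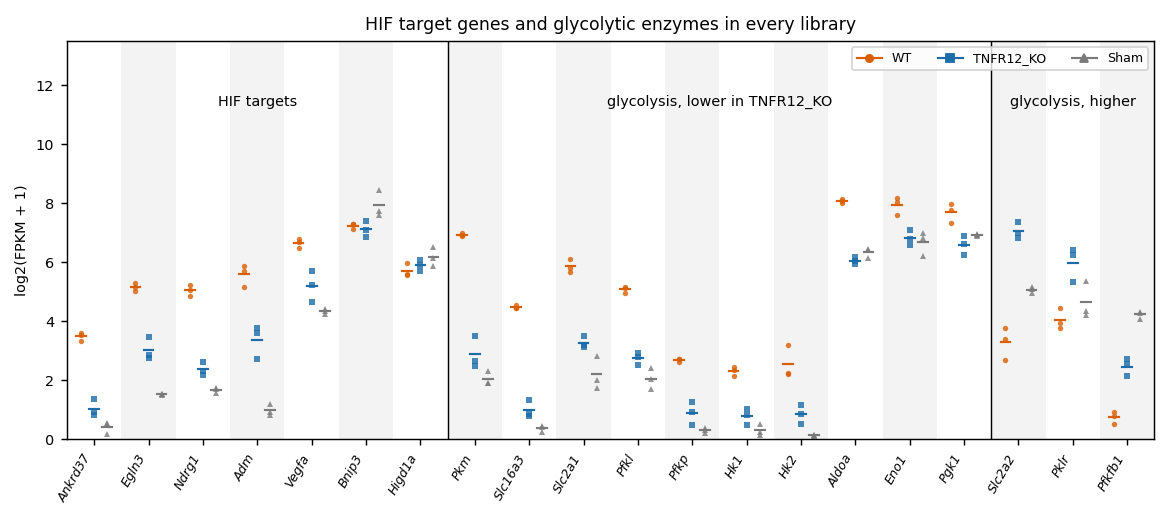
log2(FPKM + 1) in every library of WT, TNFR12_KO and Sham (points, 3 a group, bar at the mean) for HIF targets (called or not), glycolytic genes called lower and glycolytic genes called higher in TNFR12_KO. Pkm, Slc16a3 and Slc2a1 stand well below WT in all 3 TNFR12_KO libraries, and Slc2a2 stands above it.

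The integrated stress response, in which ATF4 raises amino acid synthesis and transport genes, was lower in TNFR12_KO for 15 and higher for 2 of 23 tested targets (median -1.15). Without the 2 that passed the filter on low values only through 1 group, 13 were lower and 2 higher of 21 (median -0.93). Mthfd2, an enzyme of mitochondrial folate, was at 14.5, 9.9 and 15.3 FPKM in WT and at 0.508, 0.393 and 0.82 FPKM in TNFR12_KO (log2 difference -3.16, SE 0.24, limma adjusted p = 1.24e-06). Psat1, of serine synthesis, was at 10.8, 5.94 and 13.8 FPKM in WT and at 0.191, 0.252 and 0.235 FPKM in TNFR12_KO (log2 difference -3.12, SE 0.28, limma adjusted p = 2.97e-06). The groups were separate for both. Mthfd2 was below Sham too, at 2.47 ± 0.782 FPKM (limma adjusted p = 0.00543), while for Psat1, at 0.991 ± 0.649 FPKM in Sham, that difference did not pass (limma adjusted p = 0.101). Falls were also seen for Atf4 itself (-1.15), the amino acid transporter genes Slc7a5 (-1.98) and Slc3a2 (-1.75), and the stress regulator genes Nupr1 (-1.75) and Trib3 (-1.54). Psat1 and Slc7a5 passed the filter on low values only through WT, which favoured their calls. Ddit3 (CHOP, 0.02) and Asns (-0.93) did not pass. Herpud1, which acts in the removal of misfolded ER proteins, rose, at 47.9, 55.3 and 50 FPKM in WT and at 249, 211 and 272 FPKM in TNFR12_KO (log2 difference 2.23, SE 0.22, limma adjusted p = 6.34e-06). Gdf15, a stress hormone, was at 63.5, 101 and 53.5 FPKM in WT and at 101, 184 and 252 FPKM in TNFR12_KO and was called higher although a TNFR12_KO library overlapped WT (limma adjusted p = 0.0195). The Gdf15 call was lost after median-of-ratios scaling, quantile normalization or removal of the length trend, with no filter or without either of 2 WT libraries or TNFR12_KO replicate 2 or 3 (limma adjusted p 0.0582 to 0.421).

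Nupr1, which fell, and Herpud1, which rose, are shown for the composite site TGATGNAA that ATF4 binds with C/EBP partners. Their windows are chr7:126625471-126625720 on the minus strand and chr8:94386179-94386428 on the plus strand (RefSeq, GRCm38.p6, 250 bases before the start, match in capitals on either strand).
Nupr1: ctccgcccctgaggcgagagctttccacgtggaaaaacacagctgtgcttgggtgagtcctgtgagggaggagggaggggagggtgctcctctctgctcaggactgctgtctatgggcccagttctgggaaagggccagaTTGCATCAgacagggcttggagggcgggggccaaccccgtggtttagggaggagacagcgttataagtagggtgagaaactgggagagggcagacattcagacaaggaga
Herpud1: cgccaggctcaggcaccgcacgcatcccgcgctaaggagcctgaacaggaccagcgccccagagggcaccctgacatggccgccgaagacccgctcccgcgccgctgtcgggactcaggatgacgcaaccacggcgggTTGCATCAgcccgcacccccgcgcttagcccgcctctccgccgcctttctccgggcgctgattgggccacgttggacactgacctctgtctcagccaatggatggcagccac
The site lies in 3.97% of all windows and 4.51% of symbols. It was found in 4 of 12 targets called lower (33.3%), 2 of 6 not called and 1 of 2 called higher.

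ER chaperones and other targets of ATF6 and XBP1 had 11 of 30 higher and 0 lower against WT (median 0.46), or 2 higher and 6 lower after quantile normalization (median -0.23). Against Sham 24 of the 30 were lower and 1 higher in TNFR12_KO, and 18 were lower after median-of-ratios scaling. Sel1l, of ER-associated degradation, rose from 4.89 ± 0.642 to 11.8 ± 1.38 FPKM, with Sham at 21.5 ± 10.7 FPKM. Heat shock genes had 8 higher and 2 lower of 32 (median 0.21), beside 29.6% and 17.5% of all tested genes. After median-of-ratios scaling 4 were higher and 9 lower (median -0.06), and the median was negative after quantile normalization as well. The small heat shock protein gene Cryab fell from 7.82 ± 1.56 to 2.04 ± 0.932 FPKM.

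Oxidative stress genes under NRF2 split, 10 lower and 9 higher of 27 (median -0.03, with the other sign under 5 alternatives), or 14 lower and 3 higher after quantile normalization (median -0.62). Hmox1 (heme oxygenase) was at 432, 399.5 and 388 FPKM in WT and at 58.9, 132 and 67.3 FPKM in TNFR12_KO (log2 difference -2.32, SE 0.51, limma adjusted p = 0.00239). Srxn1 (sulfiredoxin) was at 137, 109.9 and 139 FPKM in WT and at 17.9, 32.2 and 24.9 FPKM in TNFR12_KO, and Gsta1, a glutathione transferase with close copies, was at 67.3, 34.6 and 106 FPKM in WT and at 5.95, 5.23 and 4.85 FPKM in TNFR12_KO. These 3 did not overlap and fell, while Gstm1, which hepatocytes hold at rest, rose from 332 ± 75.6 to 1349 ± 231 FPKM. Of 23 p53 targets 11 were lower and 6 higher. Cdkn1a (p21) was at 100.5, 100.3 and 97.2 FPKM in WT and at 22.7, 31.9 and 34.9 FPKM in TNFR12_KO (log2 difference -1.72, SE 0.32, limma adjusted p = 7.57e-04), and Mdm2, the inhibitor of p53, was at 26, 28.7 and 23.3 FPKM in WT and at 6.73, 7.28 and 7.81 FPKM in TNFR12_KO. Perp rose from 16.2 ± 1.22 to 50 ± 9.31 FPKM. Of 17 BCL2 family genes 9 were lower and 1 higher. Without the 2 that passed the filter on low values only through 1 group, 7 were lower and 1 higher of 15 (median -0.38). The pro-apoptotic Bbc3 (PUMA) fell from 9.08 ± 3.7 to 2.88 ± 0.785 FPKM, the anti-apoptotic Bcl2a1b from 2.66 ± 0.103 to 0.58 ± 0.189 FPKM, and the pro-apoptotic Bik rose from 1.68 ± 0.734 to 7.22 ± 1.49 FPKM. Bcl2a1b passed the filter on low values only through WT, which favoured its call.

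Nuclear genes of mitochondrial respiration rose across the complexes. Of 77 nuclear-encoded subunits of oxidative phosphorylation, 76 were higher and 0 lower (median 1.59), and Atp5s (0.26) did not pass. The median was 1.26 after removal of the length trend. After quantile normalization it was 0.85, with 67 higher and 0 lower. Atp5j, of ATP synthase, was at 64.5, 87.8 and 58.9 FPKM in WT and at 381, 384 and 298 FPKM in TNFR12_KO (log2 difference 2.33, SE 0.21, limma adjusted p = 3.68e-06). Cox7b, of complex IV, was at 39.4, 40.1 and 34.9 FPKM in WT and at 198, 175 and 129 FPKM in TNFR12_KO (log2 difference 2.08, SE 0.21, limma adjusted p = 7.95e-06). Ndufa13, of complex I, was at 18.6, 38.9 and 17.4 FPKM in WT and at 106, 118 and 91.4 FPKM in TNFR12_KO. All TNFR12_KO libraries lay above all WT libraries for these 3, and the Sham means were 404 ± 84.5, 172 ± 51.2 and 121 ± 24.8 FPKM. Of 13 genes of the mitochondrial genome 8 were higher and 1 lower, but 5 of the 13 lie in loci listed at 0 in a group, and the counts were 3 higher and 1 lower after quantile normalization and 4 higher and 3 lower after removal of the length trend. The complex I gene mt-Nd2 was at 2253, 1322 and 1958 FPKM in WT and at 11900, 5239 and 8296 FPKM in TNFR12_KO. Mitochondrial ribosomal proteins were higher for 61 and lower for 1 of 78 (median 0.82), with Mrps18b as the fall (-0.63). Mitochondrial carriers of the SLC25 family were higher for 22 and lower for 1 of 36 (Slc25a4, -0.61), led by the calcium-regulated carrier gene Slc25a23, at 4.15, 5.4 and 3.74 FPKM in WT and at 34, 33.9 and 48 FPKM in TNFR12_KO.

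Fatty acid oxidation, ketogenesis and PPARA targets had 35 higher and 4 lower of 46 (median 1.49). Fabp1, the liver fatty acid carrier, was at 1642, 2161 and 1032 FPKM in WT and at 12090, 8818 and 7913 FPKM in TNFR12_KO (log2 difference 2.62, SE 0.30, limma adjusted p = 1.64e-05), and Bdh1, a ketone dehydrogenase, was at 12.5, 14.5 and 8.62 FPKM in WT and at 92.4, 99 and 86.7 FPKM in TNFR12_KO. Each was separate from WT. Pdk4, a brake on pyruvate oxidation, was at 121, 45.5 and 132 FPKM in WT and at 12.3, 20.1 and 10.5 FPKM in TNFR12_KO and fell, as did the hormone gene Fgf21, from 6.61 ± 3.33 to 1.07 ± 0.203 FPKM. Against Sham, 22 of the 46 were lower in TNFR12_KO and 3 higher, but 8 were lower after median-of-ratios scaling. Fatty acid and triglyceride synthesis had 16 higher and 2 lower of 24, the falls being Lpin2 (-1.15) and Insig2 (-1.55). Fasn (fatty acid synthase) was at 21.8, 21.9 and 18.8 FPKM in WT and at 50.1, 181 and 133 FPKM in TNFR12_KO (log2 difference 2.31, SE 0.68, limma adjusted p = 0.0132), lowest in replicate 1 but above WT in all 3, and Sham was at 20.8 ± 13 FPKM. Fasn was not called with no filter or without TNFR12_KO replicate 2 (limma adjusted p 0.0572 to 0.0593). Thrsp (Spot 14) rose from 85.4 ± 57 to 804 ± 312 FPKM. Cholesterol synthesis had 12 higher and 0 lower of 24, among them Ebp (24.2 ± 5.39 FPKM in WT and 103 ± 15.1 FPKM in TNFR12_KO) and Sc5d (27.1 ± 3.97 FPKM in WT and 111 ± 31.2 FPKM in TNFR12_KO).

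Bile acid synthesis genes were higher for 14 and lower for 0 of 20 (median 1.44). Cyp8b1, which sets the share of cholic acid, was at 6.88, 5.85 and 7.23 FPKM in WT and at 39.1, 99.7 and 96.3 FPKM in TNFR12_KO (log2 difference 3.26, SE 0.38, limma adjusted p = 2.17e-05). Cyp7a1, the rate-limiting enzyme, rose by 3.42 on the log2 scale, and the bile acid receptor gene Nr1h4 (FXR) was at 9.63, 8.84 and 7.12 FPKM in WT and at 41.7, 48.1 and 46.7 FPKM in TNFR12_KO. Uptake and export transporters were higher for 14 and lower for 0 of 19 (median 1.79). The organic anion transporter Slco1b2 was at 36, 55.9 and 23.6 FPKM in WT and at 286, 283 and 242 FPKM in TNFR12_KO (log2 difference 2.86, SE 0.30, limma adjusted p = 8.35e-06), and Slco1a4 rose from 1.36 ± 0.103 to 16.8 ± 3.5 FPKM.

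Amino acid catabolism rose almost throughout, 37 of 38 tested genes higher and 0 lower (median 2.17), with Cdo1 (0.37) not called. Tdo2, which opens tryptophan breakdown, was at 52.5, 65.4 and 35.2 FPKM in WT and at 465, 516 and 501 FPKM in TNFR12_KO (log2 difference 3.29, SE 0.22, limma adjusted p = 4.68e-07). Hgd, of tyrosine breakdown, was at 31.8, 38.5 and 24.1 FPKM in WT and at 249.7, 246 and 194 FPKM in TNFR12_KO. The 3 TNFR12_KO libraries lay close together and far above WT. The urea cycle and ammonia handling list had 19 higher and 0 lower of 21 (median 1.78), or 13 higher and 1 lower after quantile normalization (median 1.09). Otc was at 20.3, 18.6 and 12.1 FPKM in WT and at 207, 193 and 173 FPKM in TNFR12_KO (log2 difference 3.44, SE 0.20, limma adjusted p = 1.93e-07), Cps1 was at 64, 50 and 39 FPKM in WT and at 299.6, 384 and 357 FPKM in TNFR12_KO and Ass1 was at 222, 200.3 and 156 FPKM in WT and at 1096, 1353 and 1246 FPKM in TNFR12_KO, all without overlap and with Sham means of 158 ± 12, 329 ± 81.7 and 1390 ± 129 FPKM. In the methionine cycle 18 were higher and 1 lower of 20. Bhmt, which remethylates homocysteine, was at 47.2, 72.1 and 29.7 FPKM in WT and at 378, 819 and 634 FPKM in TNFR12_KO, and Sham was higher still, at 1721 ± 116 FPKM (limma adjusted p = 0.00488). In gluconeogenesis and glycogen metabolism 12 were higher and 1 lower of 22 (Pck2, the mitochondrial isoform, -0.79). The Pck2 call was lost with no filter or without either of 2 WT libraries or TNFR12_KO replicate 1 or 3 (limma adjusted p 0.0518 to 0.0811). Gys2, liver glycogen synthase, was at 9.24, 10.7 and 7.74 FPKM in WT and at 146, 108 and 99.1 FPKM in TNFR12_KO (log2 difference 3.53, SE 0.22, limma adjusted p = 2.64e-07), and Pck1, the first committed enzyme of gluconeogenesis, rose from 166 ± 28.7 to 981 ± 148 FPKM.

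**Figure D5:**
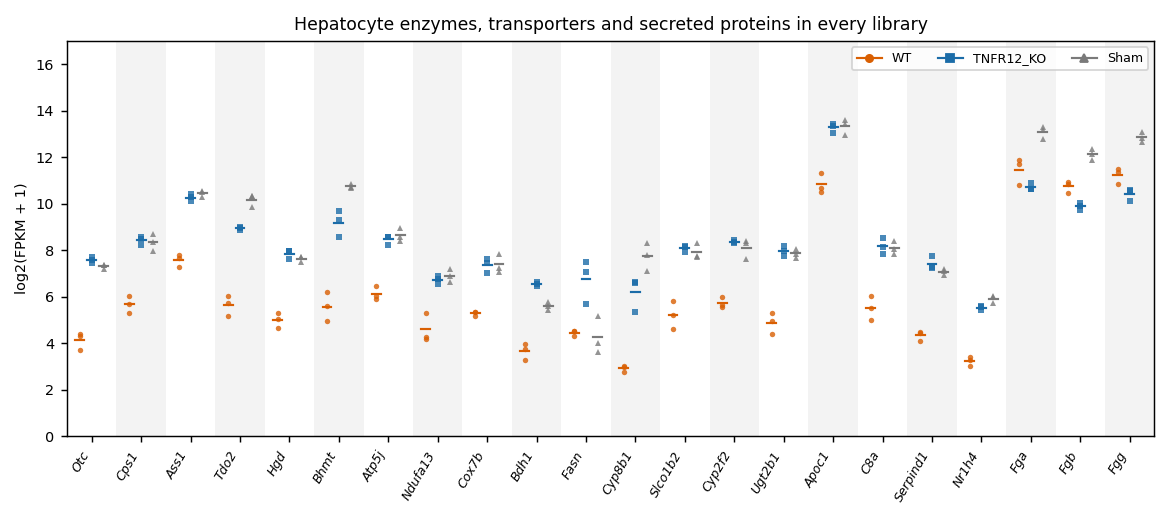
log2(FPKM + 1) in every library of WT, TNFR12_KO and Sham (points, 3 a group, bar at the mean) for enzymes, transporters and secreted proteins of hepatocytes. From Otc to Nr1h4 all TNFR12_KO libraries lie above all WT libraries, whereas the fibrinogen genes Fga, Fgb and Fgg were called lower in TNFR12_KO, with overlap for Fga.

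Drug metabolism followed the same direction. Cytochrome P450 genes of families 1 to 3 were higher for 34 and lower for 0 of 42 (median 1.54), and conjugating enzymes were higher for 42 and lower for 2 of 53 (median 1.85). Cyp2f2, a periportal P450, was at 61.9, 49.6 and 45.6 FPKM in WT and at 326, 316 and 344 FPKM in TNFR12_KO (log2 difference 2.64, SE 0.28, limma adjusted p = 1.08e-05). The glucuronosyltransferase gene Ugt2b1 was at 30.2, 38.1 and 20 FPKM in WT and at 216, 253 and 290.1 FPKM in TNFR12_KO (log2 difference 3.10, SE 0.37, limma adjusted p = 2.68e-05). The estrogen sulfotransferase gene Sult1e1 fell, from 19.1 ± 6.55 to 4.42 ± 1.39 FPKM. Cyp2a4 was at 1.19, 0.729 and 0.688 FPKM in WT and at 78, 47.5 and 8.83 FPKM in TNFR12_KO, lowest in replicate 3, and 7.38, 1347 and 1072 FPKM in RIPK1_D138N replicates 1, 2 and 3, the last pair of which expressed Xist. The Cyp2a4 difference was not called after removal of the length trend, with no filter or without any 1 of the WT libraries or TNFR12_KO replicate 1 or 2 (limma adjusted p 0.057 to 0.107). The P450, Ugt and Sult genes form families of close copies that may share fragments.

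Genes of both liver zones rose. Periportal genes were higher for 18 and lower for 0 of 22 (median 2.25), and pericentral genes were higher for 19 and lower for 1 of 25 (median 1.36). Sds, a periportal serine dehydratase, was at 16.4, 16.2 and 12.2 FPKM in WT and at 136, 120.3 and 117 FPKM in TNFR12_KO, and Rgn, a pericentral gene of ascorbate synthesis, was at 68.5, 134 and 46.4 FPKM in WT and at 778, 689.8 and 598 FPKM in TNFR12_KO. Both were free of overlap, and Oat, another pericentral gene, was at 24, 47 and 22.9 FPKM in WT and at 125, 322 and 155 FPKM in TNFR12_KO. The pericentral member that fell was the amino acid transporter Slc1a4 (-1.48), which passed the filter on low values only through WT. Hepatocyte transcription factors had 11 of 25 higher and 0 lower, including Nr1i3 (CAR, 9.66 ± 2.82 FPKM in WT and 45.8 ± 9.04 FPKM in TNFR12_KO) and Nr1h3 (LXR-alpha, 10.2 ± 0.884 FPKM in WT and 31.9 ± 5.43 FPKM in TNFR12_KO).

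Most other secreted proteins of the liver rose, unlike fibrinogen and the acute-phase genes above. Complement factors were higher for 20 and lower for 0 of 24 (median 1.76), and hepatocyte coagulation factors higher for 19 and lower for 3 of 26. C8a, of the membrane attack complex, was at 45, 65.1 and 31.4 FPKM in WT and at 365, 230.1 and 284 FPKM in TNFR12_KO (log2 difference 2.65, SE 0.49, limma adjusted p = 7.27e-04). Serpind1 (heparin cofactor II) was at 20.5, 21.5 and 16.2 FPKM in WT and at 151, 212 and 155 FPKM in TNFR12_KO (log2 difference 3.08, SE 0.18, limma adjusted p = 2.24e-07). Both lay above WT in every library. The 3 coagulation genes that fell were Fga, Fgb and Fgg. Fga was at 3301, 1807 and 3704 FPKM in WT and at 1579, 1911 and 1580 FPKM in TNFR12_KO, with 1 WT library inside the range of TNFR12_KO, and Sham stood at 8835 ± 1643 FPKM. Its call was lost with no filter or a fit of the 6 libraries alone or without either of 2 WT libraries, TNFR12_KO replicate 1, 2 or 3 or the RIPK1_D138N libraries with Xist (limma adjusted p 0.0522 to 0.162). Apolipoproteins and lipoprotein assembly genes were higher for 18 and lower for 2 of 25 (Apobec1 and Angptl4), and Apoc1 rose from 1882 ± 606 to 10030 ± 1376 FPKM. After quantile normalization 12 of the list were higher and 3 lower, and its median went from 1.31 to 0.59. Angptl4 was not called without any 1 of the WT libraries or TNFR12_KO replicate 2 or 3 (limma adjusted p 0.0524 to 0.0771). In the growth hormone and STAT3 list 8 were higher and 3 lower of 26 (median -0.04), near the shares of all tested genes (29.6% and 17.5%). The counts were 6 higher and 8 lower after median-of-ratios scaling and 6 higher and 7 lower after quantile normalization. Igfals, the carrier of circulating IGF1, was at 2.88, 3.42 and 2.77 FPKM in WT and at 34.5, 40.1 and 46.4 FPKM in TNFR12_KO (log2 difference 3.35, SE 0.21, limma adjusted p = 2.66e-07), and Ghr and Igf1 rose by 2.17 and 1.97, while the STAT3 target Socs3 (0.69) did not pass.

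The largest differences of single genes came from several of these groups. Among genes with at least 5 FPKM in the higher group, no overlap and an established name, the 12 largest rises included Hist1h2al, Cib3, Tff3, Cyp2a4, Nrep, Hbb-bt, Hsd3b2, Slc2a2, Hbb-bs, Inmt and Upp2. Cib3, which encodes a calcium-binding protein, was at 0.304, 0.526 and 0.0129 FPKM in WT and at 26.5, 158 and 30.9 FPKM in TNFR12_KO (log2 difference 5.36, SE 1.05, limma adjusted p = 0.00112). Inmt, an indole methyltransferase, was at 65.2, 108 and 46.3 FPKM in WT and at 951, 1004 and 838 FPKM in TNFR12_KO (log2 difference 3.73, SE 0.32, limma adjusted p = 2.17e-06). Upp2, a liver uridine phosphorylase, was at 14.3, 15.4 and 9.73 FPKM in WT and at 179, 183 and 184 FPKM in TNFR12_KO (log2 difference 3.72, SE 0.21, limma adjusted p = 1.93e-07). Replicate 2 was the highest TNFR12_KO library for Cib3, and Inmt and Upp2 were even. The trefoil factor gene Tff3, known from goblet cells, was at 0.205, 1.22 and 0.259 FPKM in WT and at 28.8, 62.5 and 17.3 FPKM in TNFR12_KO. Nrep was at 0.239, 0.23 and 0.204 FPKM in WT and at 25.8, 9.14 and 23.1 FPKM in TNFR12_KO and stood at 0.931 ± 0.291 FPKM in Sham and 13.6 ± 0.89 FPKM in RIPK1_D138N. Hist1h2al, a histone H2A gene, was at 33.7 FPKM or more in every TNFR12_KO library and at no more than 0.681 FPKM in the WT and Sham libraries. In RIPK1_D138N, Hist1h2al was at 1.02, 0.639 and 0 FPKM. The difference of Nrep between TNFR12_KO and RIPK1_D138N did not pass the test (limma adjusted p = 0.706).

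The 12 largest falls included Cd14, Timp1, Sprr1a, Npy, Orm2, Mt4, Cd68, Pkm, Slpi, Lce1d and Saa2. Sprr1a, a cornified envelope gene also induced by injury, was at 51, 60.3 and 82.4 FPKM in WT and at 1.92, 4.28 and 0.436 FPKM in TNFR12_KO (log2 difference -4.52, SE 0.58, limma adjusted p = 4.46e-05). Slpi, an antiprotease, was at 114, 196 and 159 FPKM in WT and at 3.82, 17 and 11.4 FPKM in TNFR12_KO (log2 difference -3.90, SE 0.45, limma adjusted p = 1.97e-05). Both were separate from WT, and Sham stood at 0.0686 ± 0.0715 and 5.55 ± 3.24 FPKM. Npy, a neuropeptide, was at 24, 16.7 and 28.3 FPKM in WT and at 0, 0.181 and 0 FPKM in TNFR12_KO, and Mt4, a metallothionein known from stratified epithelium, was at 15, 39.1 and 20.5 FPKM in WT and at 0, 0.355 and 0.48 FPKM in TNFR12_KO. Lce1d, another cornified envelope gene, was at 10.4, 35.4 and 6.86 FPKM in WT and is listed at 0 in all TNFR12_KO libraries. Timp1 fell by 4.54 on the log2 scale (limma adjusted p = 2.74e-06). Timp1, Npy, Mt4 and Lce1d passed the filter on low values only through WT, which favoured their calls. Of 22 tested genes of plasminogen activation and matrix remodelling, 10 were lower and 4 higher. Of the 22, 7 passed the filter on low values only through 1 group, and without them 6 were lower and 4 higher of 15. The urokinase receptor gene Plaur was at 16.3, 11.6 and 15.6 FPKM in WT and at 1.51, 3.69 and 1.06 FPKM in TNFR12_KO. Mmp15, a membrane metalloproteinase, rose, at 1.27, 2.27 and 1.22 FPKM in WT and at 10.9, 19.7 and 22.6 FPKM in TNFR12_KO (log2 difference 2.82, SE 0.26, limma adjusted p = 4.32e-06).

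Markers of other cell types moved less uniformly, and their part in the results above was not tested. The summed level of 7 defining hepatocyte markers was 4840 to 7000 FPKM in WT and 15500 to 18400 FPKM in TNFR12_KO, and 14 of 16 tested hepatocyte markers were higher, 2 of the 16 in loci listed at 0. Of 16 tested macrophage markers 9 were lower and 2 higher (median -0.69), the rises being Nr1h3, which hepatocytes also express, and Mpeg1 (0.83). Mpeg1 was not called after median-of-ratios scaling, with no filter or without either of 2 WT libraries or TNFR12_KO replicate 2 or 3 (limma adjusted p 0.0621 to 0.121). Cd68 was at 41.6, 60.8 and 46.3 FPKM in WT and at 1.65, 3.11 and 1.26 FPKM in TNFR12_KO (log2 difference -4.10, SE 0.22, limma adjusted p = 1.26e-07), while Sham held 2.36 ± 0.308 FPKM. The complement gene C1qa, made by Kupffer cells, fell from 11.8 ± 2.61 to 3.9 ± 1.06 FPKM, and the Kupffer cell receptor gene Clec4f from 4.42 ± 0.52 to 2.11 ± 0.353 FPKM, which was not called with no filter or without 1 WT library or TNFR12_KO replicate 2 (limma adjusted p 0.0508 to 0.0675). The Kupffer cell genes Vsig4 (0.785 ± 0.376 and 0.944 ± 0.63 FPKM in WT and TNFR12_KO) and Cd5l (1.95 ± 0.734 and 1.7 ± 0.886 FPKM) did not pass. The 9 defining macrophage markers summed to 62.2 to 88.4 FPKM in WT and 9.49 to 12.8 FPKM in TNFR12_KO, with most of the WT sum from Cd68, and to 60.2 to 90.9 FPKM in Sham. Against Sham, 12 of the 16 tested macrophage markers were lower in TNFR12_KO and 0 higher (median -1.67), so the level near Sham seen for Cd68 was not that of the list.

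Neutrophil markers differed more within groups than between them, with 0 higher and 1 lower of 10 (Cxcr4, -0.93). Of the 10, 7 passed the filter on low values only through 1 group, and 0 of the other 3 were called. The calprotectin gene S100a9 was at 62.2, 3.19 and 159 FPKM in WT and at 87.2, 17.4 and 7.85 FPKM in TNFR12_KO, and its groups overlapped. Sums over 6 neutrophil markers ran from 4.71 to 259 FPKM in WT and from 12.1 to 156 FPKM in TNFR12_KO. Sinusoidal endothelium had 2 higher and 2 lower of 26, or 1 and 4 after median-of-ratios scaling. Clec4g, a lectin of sinusoidal cells, was at 1.36, 1.02 and 0.546 FPKM in WT and at 21.6, 3.5 and 13.2 FPKM in TNFR12_KO, and Pecam1 (CD31) was at 8.44, 6.38 and 6.59 FPKM in WT and at 2.71, 0.872 and 1.85 FPKM in TNFR12_KO. TNFR12_KO replicate 2 was the lowest of its group for both, as for Klf2 above and for Cdh5 (VE-cadherin, at 6.79, 5.35 and 5.66 FPKM in WT and at 4.3, 1.16 and 2.5 FPKM in TNFR12_KO). Cdh5 was called lower, but not with no filter or without 1 WT library or TNFR12_KO replicate 2 (limma adjusted p 0.067 to 0.0975). Stellate cell and fibroblast markers were lower for 8 and higher for 2 of 22, and the collagen gene Col3a1 fell from 23.4 ± 11.5 to 5.11 ± 1.06 FPKM with Sham at 0.69 ± 0.127 FPKM. Without the 3 markers that passed the filter on low values only through 1 group, 5 were lower and 2 higher of 19. Of 6 tested lymphocyte genes 4 were higher and 0 lower, among them the immunoglobulin gene Igkc, from 12 ± 1.79 to 37.6 ± 5.99 FPKM, and Jchain (1.25).

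Globin transcripts were higher. Hbb-bs was at 38, 48 and 76.7 FPKM in WT and at 536, 620.2 and 1118 FPKM in TNFR12_KO (log2 difference 3.77, SE 0.47, limma adjusted p = 3.30e-05), and Hba-a1 was at 21.5, 18.5 and 40.5 FPKM in WT and at 269, 175 and 524 FPKM in TNFR12_KO (log2 difference 3.48, SE 0.39, limma adjusted p = 1.41e-05). Replicate 3 was the highest TNFR12_KO library for both, no library overlapped WT, and Sham held 118 ± 60.3 and 49.5 ± 19 FPKM. The 3 defining erythroid markers summed to 67.8 to 125 FPKM in WT and 845 to 1700 FPKM in TNFR12_KO. RIPK1_D138N was at 778 ± 403 FPKM for Hbb-bs. The part of blood content in the other differences was not tested.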

How the data were processed

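The 12 libraries measured total RNA of mouse liver. The authors deposited FPKM for 53796 genes in 1 table, made with STAR 2.5.4a, Cufflinks 2.2.1 and Cuffdiff on mm10, per the submitters' processing notes. The strand setting of the counting is not stated, so overlapping genes cannot be separated. WT and Sham columns were matched to a group but not to a replicate number. GENCODE M21 supplied coordinates (99.7% of genes matched), and for 131 repeated symbols the row with the highest mean was used. FPKM hold no counts, so depth was compared only through the most common ratio of values under 0.3 FPKM between libraries (15 pairs of libraries, window 0.2%).

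limma 3.58.1 in R 4.3.3 was fitted to log2(FPKM + 1), pseudocount 1, with a mean-variance trend, as 1 model of 4 group means, for genes that reached 1 FPKM in at least 3 libraries. P-values were adjusted by Benjamini-Hochberg over all tested genes, with calls under 0.05. The procedure was tested on simulated data with few changed genes, no difference in scaling and no length trend. That test therefore does not cover the effects of scaling and transcript length described above. Named genes were the 12 largest rises and falls with a mean of at least 5 FPKM, up to 4 called members of each of 69 lists, members against their list's direction, and Tnfrsf1a, Tnfrsf1b, Tnf, Ripk1, Ripk3, Mlkl and Casp8, without predicted genes and loci listed at 0. Some genes that meet this rule are not reported here. Other named genes were chosen after their values were seen. Genes and lists were chosen with earlier results of these data known. Promoters came from RefSeq (GRCm38.p6).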

Additional observations from a re-analysis of the deposited data

How the results depend on the processing

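Against WT, the total of 5519 called genes stayed within a factor of 1.5 under all 16 alternatives. The 3463 genes called higher stayed within it too, but the 2056 called lower became 3269 after median-of-ratios scaling, 3092 after quantile normalization and 1044 with a filter of 5 FPKM. Quantile normalization gave 2854 higher genes and removal of the length trend 2842 higher and 2841 lower. Leaving out 1 WT or TNFR12_KO library at a time gave 4543 to 5439 called genes in total, 2947 to 3207 higher and 1522 to 2280 lower. Against Sham the 3002 called genes ranged from 1856 (without TNFR12_KO replicate 3) to 3189 when 1 WT or TNFR12_KO library was left out. Against RIPK1_D138N the 109 called genes became 60 with no filter and 39 without the RIPK1_D138N libraries that express Xist, an alternative chosen after seeing the data that leaves 1 library, assumed to vary like the other groups. Leaving out 1 WT or TNFR12_KO library gave 31 (without TNFR12_KO replicate 3) to 116 there (without TNFR12_KO replicate 1), with 48 without TNFR12_KO replicate 2, and 58 and 70 without single WT libraries. No paired analysis was possible because the WT columns carry no replicate number that could be matched. Of 69 gene lists, 18 had a median of the other sign under at least 1 alternative.

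Of 219 named genes called against WT, 192 kept their direction and call under every alternative that could test them, and 27 lost the call under at least 1, as given beside them. Of 25 named genes that were not called, 14 gained a call under at least 1 alternative. These were Tnfrsf1b, Tnfaip3 and Vcam1 after median-of-ratios scaling, Tnfrsf1b, Atf3, Bhlhe40, Cxcl2, Gapdh and Hamp after quantile normalization, Atf3 and Cxcl2 with the length trend removed, Cxcl1, Pfkfb3 and Socs3 in a fit of the 6 libraries alone, Cxcl1 without the RIPK1_D138N libraries with Xist, Cdo1 and Tnfaip3 without 1 WT library, and Asns, Cxcl2, Hamp and Il1a without TNFR12_KO replicate 2. The sign changed for several named genes that were not called. After median-of-ratios scaling the log2 difference was -0.26 for Ddit3, -0.087 for Jun, -0.19 for Ripk1 and -0.026 for Vsig4. After quantile normalization it was -0.51 for Cdo1, -0.64 for Ddit3, -0.45 for Egr1, -0.71 for Jun, -0.021 for Ripk1 and -0.020 for Socs3. With the length trend removed it was -0.16 for Atp5s, -0.11 for Cdo1, -0.45 for Ddit3, -0.009 for Jun and -0.41 for Vsig4. Leaving out 1 library gave -0.33 to 0.15 for Cd5l, -0.39 to 0.63 for Ddit3, -0.021 to 0.41 for Jun, -0.12 to 0.13 for Ripk1, -2.05 to 0.58 for S100a9 and -0.15 to 0.30 for Vsig4.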

Other observations

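Most genes of ribosome biogenesis were lower in TNFR12_KO than in WT. Of 34 tested genes of ribosome biogenesis and the nucleolus, 0 were higher and 25 lower (29.6% and 17.5% of all tested genes), with a median log2 difference of -0.76 (0.14 over all tested genes). Gar1, a protein of the H/ACA particles that modify ribosomal RNA, was at 31.6, 59.3 and 30.5 FPKM in WT and at 3.87, 11.9 and 9.39 FPKM in TNFR12_KO. Noc2l, a nucleolar protein, was at 16.8, 16.3 and 16.6 FPKM in WT and at 6.37, 5.18 and 6.03 FPKM in TNFR12_KO, and Rrp9, of the U3 particle, was at 9.01, 12.3 and 10.4 FPKM in WT and at 5.08, 3.83 and 4.24 FPKM in TNFR12_KO. The groups were separate for these 3 genes (limma adjusted p = 1.67e-04, limma adjusted p = 2.88e-05 and limma adjusted p = 1.89e-04), and the Sham means were 12.2 ± 2.32, 6.81 ± 0.937 and 4.86 ± 0.826 FPKM. Against Sham, 13 of the 34 were called lower in TNFR12_KO and 0 higher (18.2% and 7.47% of all tested genes). After median-of-ratios scaling 5 were lower than Sham and 1 higher. Of 20 cytosolic aminoacyl-tRNA synthetases 0 were higher and 8 lower, among them Vars, at 18.1, 19.8 and 22.9 FPKM in WT and at 5.48, 6.19 and 8.52 FPKM in TNFR12_KO (log2 difference -1.48, SE 0.30, limma adjusted p = 0.00126), and Gars, at 28.4, 21.6 and 30.7 FPKM in WT and at 10.4, 12.9 and 10.2 FPKM in TNFR12_KO. Cytosolic ribosomal proteins did not share this pattern, with 4 higher and 2 lower of 82, although quantile normalization gave 1 higher and 66 lower.

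Proteasome subunits went in both directions. Of 41 tested subunits 15 were higher and 5 lower, near the shares of all tested genes (29.6% and 17.5%). Their median was 0.12 (0.14 over all tested genes). The counts became 11 and 13 after median-of-ratios scaling (median -0.16) and 6 and 22 after quantile normalization (median -0.65). The subunits induced by interferon were among the rises under each of these scalings. Psmb9 was at 2.84, 6.72 and 3.29 FPKM in WT and at 17.5, 16.4 and 21.6 FPKM in TNFR12_KO (log2 difference 1.95, SE 0.27, limma adjusted p = 7.51e-05), Psmb10 was at 10.3, 16.6 and 14.3 FPKM in WT and at 52.4, 43 and 33.6 FPKM in TNFR12_KO, and Psmb8 and the activator subunit Psme1 rose by 1.35 and 1.55 on the log2 scale. Psmd8 and Psmd11, of the regulatory cap, fell from 179 ± 14 to 84.3 ± 18.9 FPKM and from 39 ± 4.91 to 18.3 ± 0.682 FPKM.

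Cytoskeletal genes were lower. Of 21 keratins, tubulins and actins 12 were lower and 2 higher (median -0.91). Krt18, a keratin of simple epithelium, was at 1450, 1645 and 1313 FPKM in WT and at 217, 339.6 and 243 FPKM in TNFR12_KO (log2 difference -2.48, SE 0.32, limma adjusted p = 4.84e-05), and its partner Krt8 was at 1145, 999.6 and 1057 FPKM in WT and at 245, 446 and 347 FPKM in TNFR12_KO. Tubb6, a beta-tubulin, was at 47.5, 36.1 and 46.6 FPKM in WT and at 4.68, 8.99 and 7.03 FPKM in TNFR12_KO. WT stood above TNFR12_KO in every library for these 3, and Sham was lower still, at 172 ± 42.5, 93.8 ± 16.4 and 3.78 ± 1.17 FPKM. The intermediate filament gene Vim fell by 2.12, while Krt23 and Tuba4a rose by 1.08 and 0.96, Krt23 losing its call after removal of the length trend or without 1 WT library or TNFR12_KO replicate 2 (limma adjusted p 0.0592 to 0.0931) and Tuba4a after quantile normalization (limma adjusted p = 0.193). Of 22 YAP and SRF targets 11 were lower and 1 higher. Of 26 S100, annexin and other injury genes 11 were lower and 6 higher, and the annexin gene Anxa2 was at 67.6, 34.1 and 106 FPKM in WT and at 8.5, 7.03 and 4.57 FPKM in TNFR12_KO (log2 difference -3.08, SE 0.33, limma adjusted p = 1.18e-05). The metallothionein genes Mt1 and Mt2, chosen after their values were seen, were at 3277, 3852 and 3367 FPKM in WT and at 858, 842 and 555 FPKM in TNFR12_KO for Mt1 and at 3627, 3715 and 3538 FPKM in WT and at 1029, 1096 and 698 FPKM in TNFR12_KO for Mt2, and Sham held 6843 ± 3251 and 5414 ± 3076 FPKM.

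Among growth factors the EGF receptor ligand Btc was at 11.6, 8.38 and 11.4 FPKM in WT and at 0.599, 1.55 and 1.02 FPKM in TNFR12_KO (log2 difference -2.49, SE 0.22, limma adjusted p = 3.06e-06), and Ereg was at 8.89, 2.63 and 6.77 FPKM in WT and at 0.121, 0.654 and 0.208 FPKM in TNFR12_KO. Both groups stood apart for each gene, with Sham at 0.404 ± 0.27 and 0.0726 ± 0.0356 FPKM. Btc and Ereg passed the filter on low values only through WT, which favoured their calls. Met, the receptor of hepatocyte growth factor, rose from 2.84 ± 1.12 to 6.22 ± 0.164 FPKM. In the cell cycle list 5 were higher and 4 lower of 19 (median 0.02, negative after median-of-ratios and quantile scaling and removal of the length trend). Ccnd1 (cyclin D1) was at 0.637, 1.43 and 0.633 FPKM in WT and at 8.12, 6.82 and 9.66 FPKM in TNFR12_KO (log2 difference 2.29, SE 0.36, limma adjusted p = 2.03e-04), and the replication gene Mcm7 was at 7.36, 9.25 and 7.81 FPKM in WT and at 2, 2.25 and 1.99 FPKM in TNFR12_KO (log2 difference -1.56, SE 0.16, limma adjusted p = 7.47e-06), opposite directions without overlap.

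Of 18 clock and clock output genes 7 were higher and 2 lower (median 0.12, negative after median-of-ratios and quantile scaling). Dbp, a clock output factor, was at 9.19, 17.2 and 6.62 FPKM in WT and at 119, 106 and 104 FPKM in TNFR12_KO (log2 difference 3.30, SE 0.25, limma adjusted p = 1.24e-06), and Usp2 was at 1.28, 1.83 and 0.853 FPKM in WT and at 19.6, 9.06 and 13.9 FPKM in TNFR12_KO. The clock repressor gene Nr1d1 fell from 30.6 ± 2.28 to 18.6 ± 5 FPKM and was not called with no filter or without any 1 of the WT libraries or TNFR12_KO replicate 1 or 2 (limma adjusted p 0.0632 to 0.135). Sham was between the groups for Dbp, at 20.9 ± 2.2 FPKM. No time of day is stated for the collections, and its part in these values was not tested. Tsc22d3 (GILZ), a glucocorticoid-induced gene, was at 9.21, 9.51 and 8.33 FPKM in WT and at 72.9, 57.9 and 70.3 FPKM in TNFR12_KO (log2 difference 2.76, SE 0.21, limma adjusted p = 1.24e-06), with 6 higher and 7 lower of 20 genes of its list. Lamp2, a lysosomal membrane protein, rose from 50.9 ± 1.28 to 210.3 ± 31.9 FPKM, while the autophagy receptor gene Sqstm1 (p62) fell from 443 ± 84.2 to 211 ± 46.2 FPKM.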
